A study of Mus musculus with 12 samples.

Results

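The 49 genes described here encode proteins of the lysosome and were measured in the RNA of cortical microglia. They were taken by name from a list of the subunits of the lysosomal proton pump, lysosomal hydrolases and lysosomal membrane proteins, with the cathepsins left out, and no threshold on a measured value entered the list. All 49 were found among the 55487 genes of the count table, and all 49 were among the 15425 genes that passed the filter on low counts.

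Lysosomes break down material that microglia take up from their surroundings, including amyloid, myelin and dying cells. The vacuolar ATPase (V-ATPase) acidifies them: its V1 sector hydrolyses ATP on the cytosolic face, and its V0 sector carries protons through the membrane. The acid hydrolases inside then cut sugars, sulfate groups, lipids and peptides, and many of them are known from lysosomal storage diseases in which a single enzyme is missing. Many lysosomal genes carry an E-box in the promoter that is bound by factors of the MiT/TFE family such as Tfeb.

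CD11b-positive cells had been isolated with magnetic beads after papain digestion of the cerebral cortex, and each of the 12 libraries comes from a different male mouse. WT mice were C57BL/6J, and App NL-G-F mice carry the Swedish, Iberian and Arctic mutations in a humanized sequence knocked into the endogenous App gene on the same background, so every cell that expresses App is affected. Mice of each strain were given either veh, which is PBS, or 10 mg/kg of rh Bri2 BRICHOS R221E, a recombinant human variant of a chaperone domain, which makes 4 groups of 3 mice. Mice given the protein are called treated. Mice of every group received 24 intravenous injections over 12 weeks, starting at 9 months of age, and tissue was taken 4 weeks after the last injection. The comparisons ask how the strains differ under each treatment and whether the treatment changed the lysosomal genes in either strain.

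Between 12433402 and 17889654 reads per library were counted on genes. Levels are CPM, a gene's counts scaled to the total of its library and normalized with edgeR's TMM factors, and 3 counts correspond to 0.168 to 0.241 CPM before that scaling. Genes are listed by Ensembl identifier, and their coordinates are those of GRCm38. The tests are those of edgeR's quasi-likelihood fit over all tested genes, and a gene was called where its p-value, adjusted after Benjamini and Hochberg, was under 0.05. All 8 microglial markers examined were detected in every library, with a summed level of 19911 to 21653 CPM in veh-treated WT, 18993 to 19572 in treated WT, 15322 to 16266 in App NL-G-F given veh and 15807 to 16836 in treated App NL-G-F mice. The 8 astrocyte markers summed to 430 to 615 CPM in veh-treated WT and to 431 to 802 in treated WT mice. They summed to 4601, 4108 and 1430 CPM in replicates 1, 2 and 3 of the App NL-G-F mice given veh. In the treated App NL-G-F mice they were at 660 to 1920 CPM, which overlapped with WT mice. Replicates 1 and 2 of App NL-G-F mice given veh stood apart from all other libraries. The 7 oligodendrocyte markers summed to 1526 to 7529 CPM in WT and 1781 to 3482 CPM in App NL-G-F mice. The 8 neuronal markers stayed between 14.5 and 49.7 CPM in all libraries. Markers of other immune cells were lower, or overlapped narrowly in the case of neutrophils, in App NL-G-F than in WT mice. The 5 border macrophage markers summed to 365 to 593 CPM in WT and 154 to 208 CPM in App NL-G-F mice, the 5 neutrophil markers to 32.8 to 409 and 10.7 to 34.4 CPM, and the 4 B cell markers to 10.9 to 12.8 and 5.12 to 6.91 CPM. What part these cells have in the strain differences was not tested, beyond the covariates given below for astrocytes and oligodendrocytes. In such bulk samples, fewer cells of a type and less RNA per cell cannot be told apart.

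The promoters of 5 of the 6 genes found to hold TCACGTGA, an E-box-type palindrome known from lysosomal genes, are shown first. They are those with the largest strain differences in veh-treated mice, so the choice used the measured values. The gene left out, Mcoln1, had a log2 fold change of 0.21 and was not called. RefSeq gave 44 promoter windows, from 250 bases before to 50 bases after a transcription start, for 40 of the 49 genes. A gene was counted for a motif where any of its windows held it. Cln3 has another window, chr7:126585768-126586067, which holds no CACGTG and is not shown. The windows below are on GRCm38.p6 and run 5′ to 3′ on the strand of the gene, with the palindrome, or the part of it that is present, in capitals.
Gla, chrX:134600956-134601255, minus strand: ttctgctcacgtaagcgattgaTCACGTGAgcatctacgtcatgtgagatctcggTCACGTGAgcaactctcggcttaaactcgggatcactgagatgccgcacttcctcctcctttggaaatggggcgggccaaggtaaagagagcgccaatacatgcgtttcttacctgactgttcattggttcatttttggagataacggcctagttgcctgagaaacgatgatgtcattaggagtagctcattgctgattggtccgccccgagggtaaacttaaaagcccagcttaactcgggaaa
Atp6v1a, chr16:44139210-44139509, minus strand: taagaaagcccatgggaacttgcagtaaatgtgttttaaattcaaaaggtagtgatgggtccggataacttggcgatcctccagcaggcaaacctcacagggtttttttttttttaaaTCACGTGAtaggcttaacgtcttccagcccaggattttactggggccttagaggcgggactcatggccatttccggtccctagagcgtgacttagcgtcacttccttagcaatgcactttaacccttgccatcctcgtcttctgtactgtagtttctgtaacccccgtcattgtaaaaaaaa
Atp6v0e, chr17:26676146-26676445, plus strand: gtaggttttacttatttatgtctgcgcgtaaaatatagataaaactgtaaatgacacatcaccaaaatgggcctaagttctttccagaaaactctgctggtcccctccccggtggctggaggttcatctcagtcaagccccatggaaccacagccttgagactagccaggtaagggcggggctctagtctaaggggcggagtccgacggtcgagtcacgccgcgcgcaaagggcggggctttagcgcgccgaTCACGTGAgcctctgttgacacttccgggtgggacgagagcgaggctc
Atp6v0d1, chr8:105566015-105566314, minus strand: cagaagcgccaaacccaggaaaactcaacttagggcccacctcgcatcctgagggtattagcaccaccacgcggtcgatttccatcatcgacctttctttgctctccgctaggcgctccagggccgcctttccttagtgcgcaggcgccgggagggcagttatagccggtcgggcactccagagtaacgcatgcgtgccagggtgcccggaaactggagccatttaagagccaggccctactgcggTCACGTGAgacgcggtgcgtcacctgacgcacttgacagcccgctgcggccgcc
Cln3, chr7:126583187-126583486, minus strand: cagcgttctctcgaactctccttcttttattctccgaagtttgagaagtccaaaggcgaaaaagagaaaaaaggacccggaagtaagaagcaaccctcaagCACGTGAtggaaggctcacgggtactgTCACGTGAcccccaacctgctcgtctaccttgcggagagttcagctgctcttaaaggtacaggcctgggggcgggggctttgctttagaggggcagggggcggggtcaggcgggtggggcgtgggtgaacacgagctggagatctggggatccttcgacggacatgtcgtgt

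The core of this element, CACGTG, was present in the windows of 13 of the 40 genes (32.5%), and in those of 11.3% of the 11359 tested genes with a RefSeq promoter. It reads the same on both strands and was searched on both. Each of the 13 genes also held the longer TCACGTG, which overlaps it and was present in 6.60% of the tested genes. The full palindrome TCACGTGA was present in 6 of the 40 (15.0%), against 2.02% of the tested genes. The GC-box letters GGGCGG (70.0% of the 40 and 66.5% of the tested genes) and the CCAAT letters (40.0% and 42.4%) were searched in the same way. A match is a description of letters in a window of 300 bases and does not show binding.

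In mice given veh, 41 of the 49 genes were upregulated in the App NL-G-F strain, Sgsh and Ids were downregulated, and 6 were not called. Of all tested genes 37.0% were called, 20.1% as higher and 16.9% as lower. The median log2 fold change of the 49 genes was 0.51, and that of all tested genes was -0.022. For 47 of the 49, all but Scarb2 and Arsa, the 3 mice of each strain had separate ranges, which was so for 50.9% of all tested genes. Together the 49 genes made up 18127, 18979 and 19337 CPM in veh-treated WT mice and 27296, 27953 and 28570 CPM in App NL-G-F mice given veh. The highest WT sum was thus well below the lowest App NL-G-F sum.

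**Figure D1:**
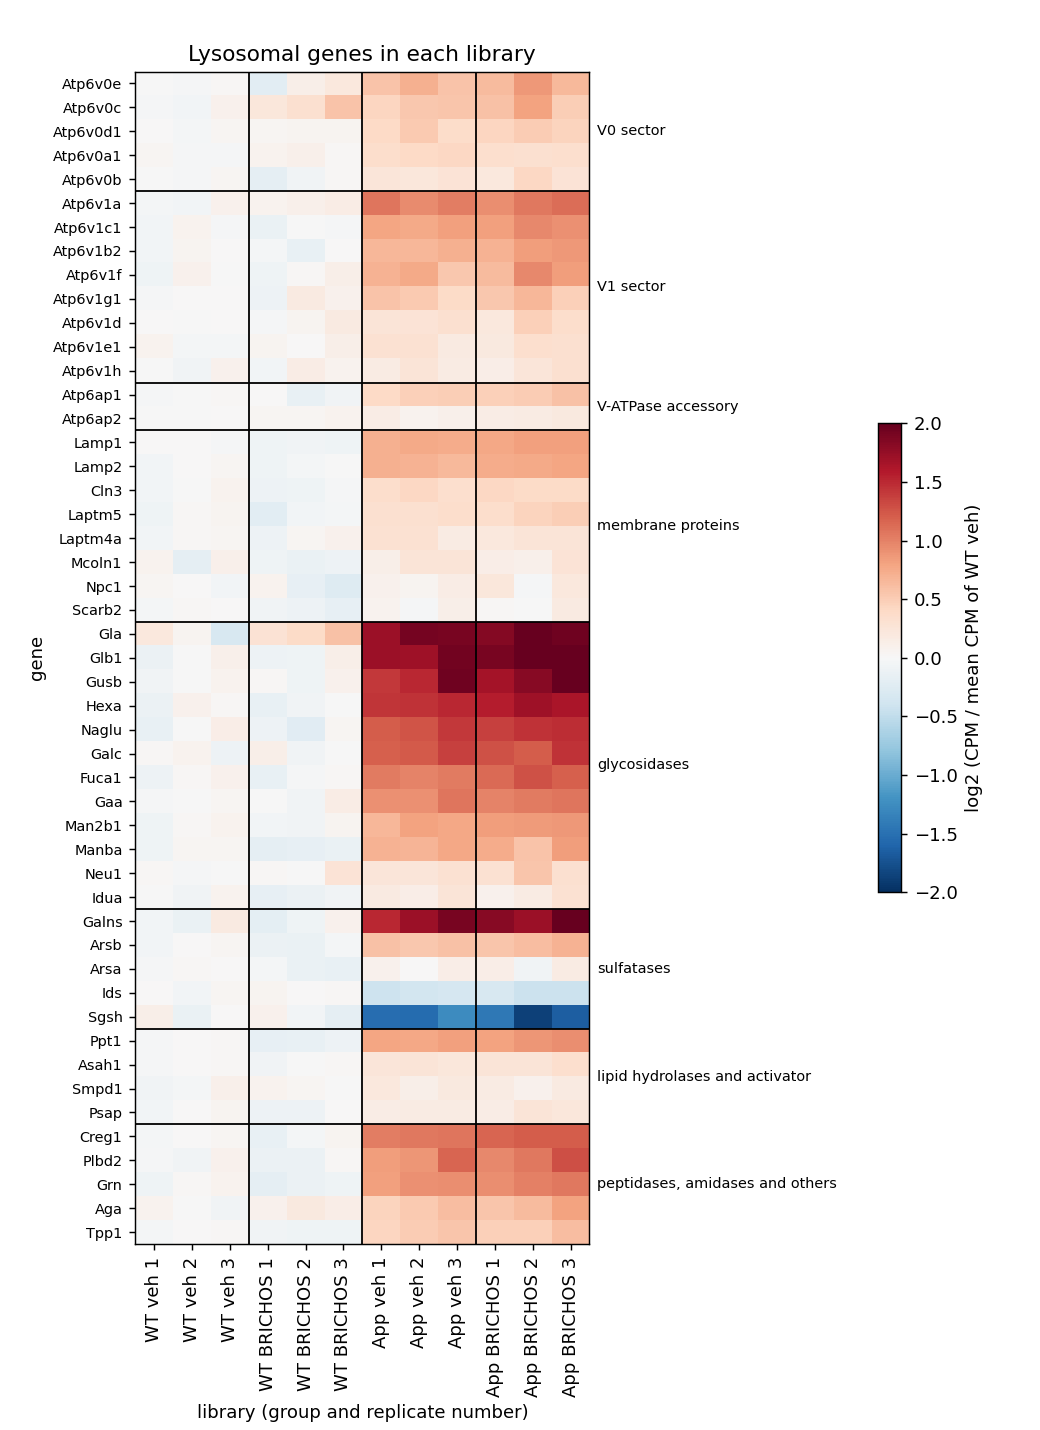
Heat map of the 49 genes (rows, grouped by role and ordered by the strain difference in veh-treated mice) in the 12 libraries (columns). The colour is the log2 ratio of the normalized CPM to the mean of the 3 veh-treated WT mice, on a scale that stops at 2 in either direction. The 6 App NL-G-F columns are red for nearly all genes, with the glycosidases darkest, and blue for Sgsh and Ids.

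Most V-ATPase genes were upregulated, by less than the glycosidases described below. Of its 15 genes, 14 were upregulated in App NL-G-F mice given veh and none was downregulated, with a median log2 fold change of 0.46. Their summed level was 1885, 1895 and 1935 CPM in veh-treated WT and 2628, 2668 and 2660 CPM in App NL-G-F mice given veh. With library totals in place of TMM factors 10 of the 15 were called, and the estimate of Atp6ap2 turned negative. With the astrocyte marker level as a covariate 8 of the 15 were called, and the calls of Atp6v0b, Atp6v0e, Atp6v1d, Atp6v1e1, Atp6v1g1 and Atp6ap2 were lost.

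All 5 V0 genes were upregulated, by log2 fold changes of 0.25 to 0.61. Atp6v0e (chr17:26663231-26699647), a small membrane subunit, was at 57.9, 57.1 and 59.4 CPM in veh-treated WT and at 85.9, 94.8 and 85.9 CPM in App NL-G-F mice given veh. The groups lay well apart (log2 fold change 0.61 ± 0.0998 SE, adjusted p = 0.000575). Atp6v0c (chr17:24163866-24169702) encodes the proteolipid of the proton-carrying ring. It was at 140, 137 and 150 CPM in the WT mice and at 192, 206 and 208 CPM in the App NL-G-F mice, again without overlap (0.51 ± 0.0964, adjusted p = 0.00164). Of the pseudogenes that carry its name, Atp6v0c-ps1 had 0 to 2 and Atp6v0c-ps2 11 to 26 counts, against 2017 to 3901 for Atp6v0c. Atp6v0d1, the stalk subunit whose promoter is shown above, rose by 0.43 ± 0.0492 (adjusted p = 3.94e-05), Atp6v0a1 by 0.39 and Atp6v0b by 0.25.

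In the V1 sector 7 of 8 genes were upregulated, with a median of 0.58. Atp6v1a (ENSMUSG00000052459, chr16:44085402-44139705), the catalytic subunit, was at 97.0, 96.1 and 105 CPM in veh-treated WT and at 210, 192 and 203 CPM in App NL-G-F mice given veh. The ranges lay far apart (fold 2.03, 95% CI 1.85 to 2.22, adjusted p = 2.01e-07). Atp6v1c1 (chr15:38661933-38692446), which links the V1 stalks, was at 123, 135 and 127 CPM against 220, 217 and 226 CPM. Its log2 fold change was 0.79 ± 0.055 (adjusted p = 7.6e-07). The second subunit of the catalytic head, Atp6v1b2, rose by 0.68, and the central and peripheral stalk genes Atp6v1f, Atp6v1g1, Atp6v1d and Atp6v1e1 rose by 0.67, 0.50, 0.28 and 0.26. Atp6v1h, a regulatory subunit, had a log2 fold change of 0.19 (95% CI 0.033 to 0.36) and was not called (adjusted p = 0.0576).

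The accessory protein gene Atp6ap1 (chrX:74297097-74304721) was at 338, 342 and 351 CPM in veh-treated WT and at 452, 478 and 486 CPM in App NL-G-F mice given veh, a rise of 0.46 ± 0.0528 (adjusted p = 4.16e-05). Atp6ap2 (chrX:12587801-12617049), also known as the prorenin receptor, was at 153, 154 and 155 CPM against 170, 161 and 166 CPM. These groups lay close together, and its log2 fold change of 0.11 ± 0.038 passed narrowly (adjusted p = 0.0438). With library totals in place of TMM factors it was -0.083 (adjusted p = 0.142), and its call was lost in 19 of the 22 alternative fits.

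**Figure D2:**
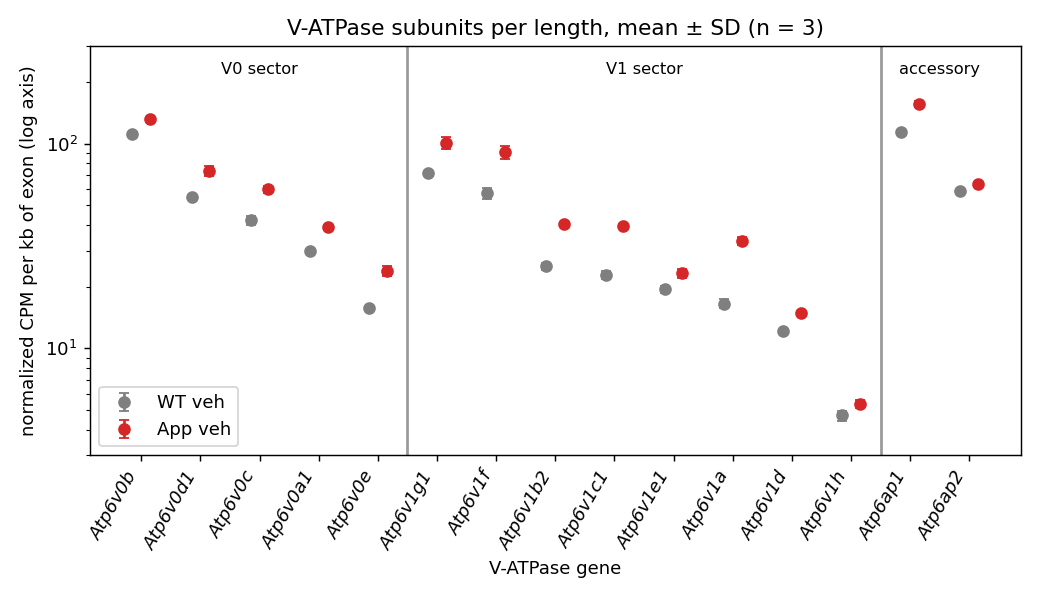
Mean normalized CPM per kb of exon (log axis) of the 15 V-ATPase genes, ordered by sector and by level, in veh-treated WT (grey) and App NL-G-F (red) mice, with the SD of n = 3 as bars. Levels of different subunits span from 4.69 (Atp6v1h) to 114 (Atp6ap1) in WT mice, a spread far wider than the strain differences.

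Per kb of exon, the scale on which levels of different genes were compared, the V-ATPase subunits differed widely from each other. In veh-treated WT mice Atp6ap1 was at 114 ± 2.11 (SD, n = 3) and Atp6v0b at 111 ± 2.86 CPM per kb, and these neighbours did not differ beyond their spread. Atp6v1g1 followed at 71.7 ± 1.15, and Atp6v1d at 12.2 ± 0.0466 and Atp6v1h at 4.69 ± 0.266 CPM per kb were the lowest of the pump. Over all 49 genes, the saposin precursor gene Psap was highest, at 1560 ± 57.7, followed by Laptm5 at 765 ± 38.6, Lamp1 at 459 ± 7.35, Grn at 408 ± 21.2 and Hexa at 382 ± 26.9 CPM per kb, of which Grn and Hexa overlapped. The lowest were Gla (3.94 ± 0.716) and Galc (3.84 ± 0.224), which overlapped too. In App NL-G-F mice given veh Hexa stood second, at 1050 ± 29.5, and Sgsh was lowest, at 3.58 ± 0.405 CPM per kb. The order of the 49 was otherwise similar in both groups (Spearman's rho 0.957 across genes, which are not independent replicates). These ranks depend on the length. With the longest annotated transcript in place of all exons, 9 of the 10 highest genes in WT mice were among the 10 highest again, but Hexa was at rank 4 in App NL-G-F mice given veh, Galc was at 12.9 CPM per kb in WT mice (rank 44 of 49), and Atp6v0b (228) was above Atp6ap1 (157). Sgsh was lowest in App NL-G-F mice given veh on both lengths.

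Of the 8 membrane proteins 5 were upregulated and 3 were not called in App NL-G-F mice given veh. Lamp1 and Lamp2 encode the most abundant glycoproteins of the lysosomal membrane. Lamp1 (ENSMUSG00000031447, chr8:13159161-13175338) was at 1236, 1240 and 1204 CPM in veh-treated WT and at 2015, 2063 and 2055 CPM in App NL-G-F mice given veh, and Lamp2 (chrX:38401357-38456454) at 450, 471 and 481 against 765, 756 and 735 CPM. Neither gene overlapped between the strains, with log2 fold changes of 0.74 ± 0.0471 for Lamp1 (adjusted p = 3.52e-07) and 0.69 ± 0.0468 for Lamp2 (adjusted p = 6.17e-07). Cln3, whose loss causes juvenile Batten disease, rose by 0.37, and Laptm5 and Laptm4a, membrane proteins of late endosomes and lysosomes, by 0.33 and 0.26. The cholesterol exporter gene Npc1 (0.10, 95% CI -0.085 to 0.28), the calcium channel gene Mcoln1 (0.21, 0.041 to 0.37) and Scarb2, the receptor that carries glucocerebrosidase to lysosomes (0.053, -0.077 to 0.18), were not called. The calls of Laptm5 and Laptm4a were lost with library totals and with the astrocyte marker level as a covariate, so that 3 of the 8 were called. The estimates of Scarb2 and Npc1 were negative with library totals.

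The glycosidases, which cut sugars from glycolipids, glycoproteins and glycosaminoglycans, showed the largest changes. All 12 were upregulated in App NL-G-F mice given veh, with a median log2 fold change of 1.14, and no gene overlapped between the groups. Their summed level was 2969, 3215 and 3273 CPM in veh-treated WT and 6433, 6722 and 7157 CPM in App NL-G-F mice given veh. With library totals none of the 12 changed direction and 10 were called, without Idua and Neu1.

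Gla (ENSMUSG00000031266, chrX:134588149-134601125), alpha-galactosidase A, which is deficient in Fabry disease, was at 14.9, 13.4 and 10.3 CPM in veh-treated WT and at 42.3, 48.6 and 47.9 CPM in App NL-G-F mice given veh. Its fold of 3.59 (95% CI 2.43 to 5.32, adjusted p = 0.000191) has the widest interval of the 49 genes. Glb1 (ENSMUSG00000045594, chr9:114401076-114474898), the lysosomal beta-galactosidase, was at 76.8, 82.6 and 89.2 CPM against 271, 269 and 315 CPM, a fold of 3.44 (3.01 to 3.92, adjusted p = 4.49e-08). It shares exonic sequence on the same strand with Tmppe, which had 126 to 187 counts against 1121 to 5302 for Glb1. Hexa (ENSMUSG00000025232, chr9:59539540-59565109), the alpha subunit of beta-hexosaminidase, was at 702, 806 and 778 CPM against 2055, 2069 and 2163 CPM, a log2 fold change of 1.46 ± 0.0673 (adjusted p = 2.99e-08).

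Gusb, beta-glucuronidase, rose by 1.64, and its App NL-G-F mice were uneven, at 625, 661 and 902 CPM against 223, 233 and 245 CPM in WT mice. Naglu and Galc, whose loss causes Sanfilippo B and Krabbe disease, rose by 1.30 and 1.26. Fuca1 (1.02), the Pompe disease gene Gaa (0.97) and the mannosidase genes Man2b1 (0.75) and Manba (0.72) followed. The smallest changes of the group were those of the sialidase gene Neu1 (0.26, adjusted p = 0.0251) and of Idua (0.19, adjusted p = 0.034), the gene mutated in Hurler syndrome. The calls of both were lost with library totals, with either the astrocyte or the oligodendrocyte marker level as a covariate, and without any of several single libraries.

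**Figure D3:**
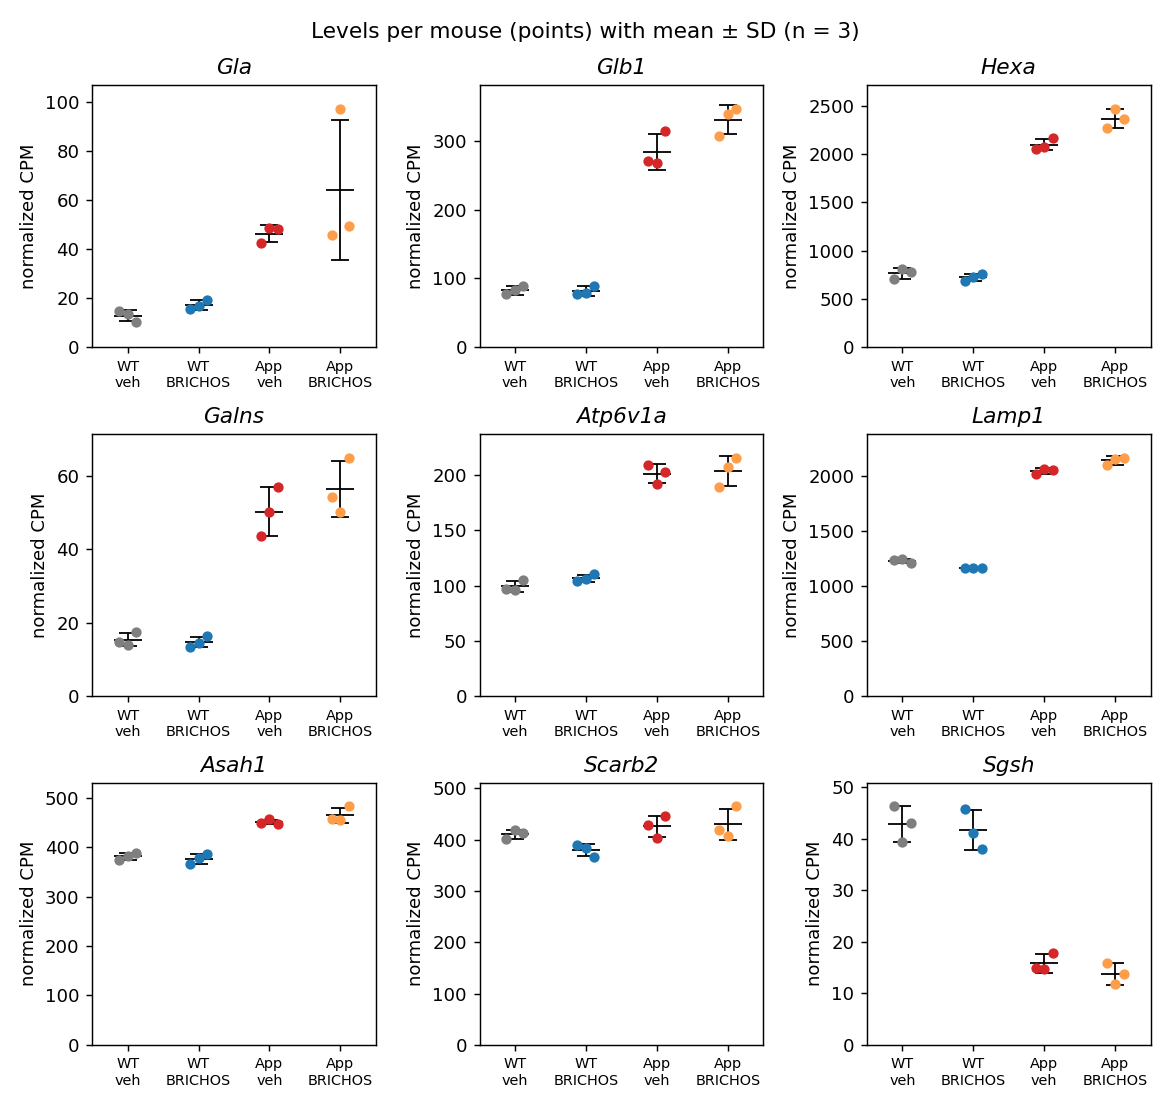
Normalized CPM (linear axis from 0) of 9 genes in every mouse of the 4 groups, with the mean ± SD of n = 3 in black. Levels of 7 genes are higher in App NL-G-F than in WT mice, Scarb2 overlaps between the strains given veh, Sgsh is lower, and a single treated App NL-G-F mouse stands above the others for Gla, at 97.1 CPM.

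The sulfatases moved in both directions. Galns and Arsb were upregulated, Sgsh and Ids were downregulated and Arsa was not called. Galns (ENSMUSG00000015027, chr8:122578242-122611463), the Morquio A enzyme, was at 14.8, 13.9 and 17.4 CPM in veh-treated WT and at 43.6, 50.2 and 57.1 CPM in App NL-G-F mice given veh, a fold of 3.28 (95% CI 2.68 to 4.01, adjusted p = 1.72e-06). Sgsh (ENSMUSG00000005043, chr11:119343425-119355536), the heparan sulfatase that is missing in Sanfilippo A disease, was at 46.2, 39.3 and 43.0 CPM against 14.8, 14.7 and 17.9 CPM. It had the largest fall of the 49 genes, and the highest App NL-G-F mouse was below the lowest WT mouse (log2 fold change -1.44 ± 0.123, adjusted p = 3.79e-06). Its exons overlap with Card14 on the opposite strand, which had 0 to 14 counts against 181 to 729 for Sgsh.

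Ids (ENSMUSG00000035847, chrX:70343069-70365084), the Hunter disease gene, was at 194, 185 and 197 CPM in the WT and at 144, 149 and 152 CPM in the App NL-G-F mice. The groups lay apart here as well, with a log2 fold change of -0.37 ± 0.046 (adjusted p = 7.01e-05). Arsb rose by 0.57, and Arsa, the metachromatic leukodystrophy gene, had 0.078 (95% CI -0.067 to 0.22). The directions of the 4 called sulfatases were kept with library totals, with which the estimate of Arsa was negative. Sgsh and Ids both act on heparan sulfate, as do Idua, Naglu and Gusb among the glycosidases and, outside the 49 genes, Hgsnat. This grouping was made after the values were seen. Naglu, Gusb and Idua were upregulated, and Sgsh, Ids and Hgsnat (-0.22, adjusted p = 0.0354) were downregulated in App NL-G-F mice given veh.

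Among the genes for lipid breakdown 3 of 4 were upregulated. Ppt1 (ENSMUSG00000028657, chr4:122836242-122859175), which removes palmitate from proteins, was at 279, 286 and 291 CPM in veh-treated WT and at 495, 486 and 501 CPM in App NL-G-F mice given veh (log2 fold change 0.79 ± 0.0463, adjusted p = 1.79e-07). It overlaps with the abundant gene Cap1 on the opposite strand (8821 to 12843 counts, against 3902 to 8234 for Ppt1), and the strand setting of the counting is not given in the sources used here. Asah1 (chr8:41340197-41374773), acid ceramidase, was at 374, 382 and 389 CPM against 450, 457 and 448 CPM, apart but by little (0.24 ± 0.0441, adjusted p = 0.00122). The acid sphingomyelinase gene Smpd1 rose by 0.18 (adjusted p = 0.0275), and Psap (0.16, 95% CI 0.022 to 0.30, adjusted p = 0.0676) was not called. With library totals, or with the astrocyte marker level as a covariate, Ppt1 alone was called of the 4, and the estimates of Smpd1 and Psap were negative with library totals.

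All 5 peptidases, amidases and other luminal proteins were upregulated, also with library totals. Creg1 (ENSMUSG00000040713, chr1:165763746-165775308), a secreted and lysosomal glycoprotein, was at 290, 299 and 305 CPM in veh-treated WT and at 602, 619 and 626 CPM in App NL-G-F mice given veh, a fold of 2.07 (95% CI 1.90 to 2.25, adjusted p = 7.6e-08). Plbd2 (chr5:120483282-120503625), a phospholipase B-like protein, was at 105, 101 and 113 CPM against 189, 196 and 239 CPM, with a wider spread in App NL-G-F mice (0.97 ± 0.102, adjusted p = 2.02e-05). Grn, the progranulin gene of frontotemporal dementia, rose by 0.89, the aspartylglucosaminidase gene Aga by 0.53, and Tpp1, a peptidase that is missing in late infantile Batten disease, by 0.50.

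The strain difference was measured again in libraries that share no mouse with the comparison above. The calls of both comparisons come from 1 fit of all 12 libraries with a shared estimate of spread, so they are not independent. In treated mice, 45 of the 49 genes were upregulated in the App NL-G-F strain, Sgsh and Ids were downregulated, and Atp6v1h and Smpd1 were not called. Of all tested genes 42.5% were called, 20.8% as higher and 21.8% as lower. The median log2 fold change of the 49 was 0.60, against -0.042 over all tested genes. The ranges of the strains were separate for 45 of the 49 and for 51.7% of all tested genes. All 49 had the same sign under both treatments, as had 12138 of the 15425 tested genes. The share of all tested genes called under both treatments was not computed, so the 49 are not counted in this way. Smpd1 was called only in veh-treated mice, and Scarb2, Npc1, Mcoln1, Arsa and Psap only in treated mice. None of these 6 was called in the test of the difference between treatments, and a p-value that misses the threshold does not show that they are alike. Of the calls made only in treated mice, those of Scarb2, Npc1, Mcoln1 and Arsa were lost without some single libraries, such as replicate 3 of treated App NL-G-F mice (Scarb2 0.12, Npc1 0.22, Mcoln1 0.22, Arsa 0.14). Across the 49 genes the log2 fold changes of both comparisons correlated with a Pearson's r of 0.989, which describes genes and not mice. All tested genes gave 0.743.

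Both strain differences depended on the scaling. The TMM factors were 1.045 to 1.104 in WT and 0.874 to 0.952 in App NL-G-F libraries. With library totals alone, the median of all tested genes moved to -0.212 in veh-treated and to -0.312 in treated mice, and the median of the 49 genes to 0.32 and 0.33. Then 31 genes were upregulated and 2 downregulated in veh-treated mice, and 30 and 3 in treated mice, the third being Atp6ap2, while 46.7% and 55.7% of all tested genes were called. Beside Atp6ap2, the estimates of Scarb2, Npc1, Arsa, Smpd1 and Psap turned negative in veh-treated mice. In treated mice those of Atp6v0a1, Atp6v0c, Atp6v1e1, Atp6v1h, Scarb2, Laptm4a, Npc1, Arsa and Smpd1 did so.

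As given above, the astrocyte markers were highest in replicates 1 and 2 of the App NL-G-F mice given veh. With their level as a covariate the median of the 49 genes was 0.58 in veh-treated and 0.64 in treated mice, and 31 and 44 of the 49 were called, against 11.8% and 40.7% of all tested genes. Without these 2 libraries 34 of the 49 and 2617 of 16380 tested genes were called in veh-treated mice. With the oligodendrocyte marker level as a covariate 36 and 46 of the 49 were called, against 24.4% and 40.8% of all tested genes. Of the 43 genes called in veh-treated mice, 31 were called in each of the 22 alternative fits, among them Sgsh and Ids. The smallest change among these was 0.37. How many of all tested genes kept their calls in every fit was not computed.

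**Figure D4:**
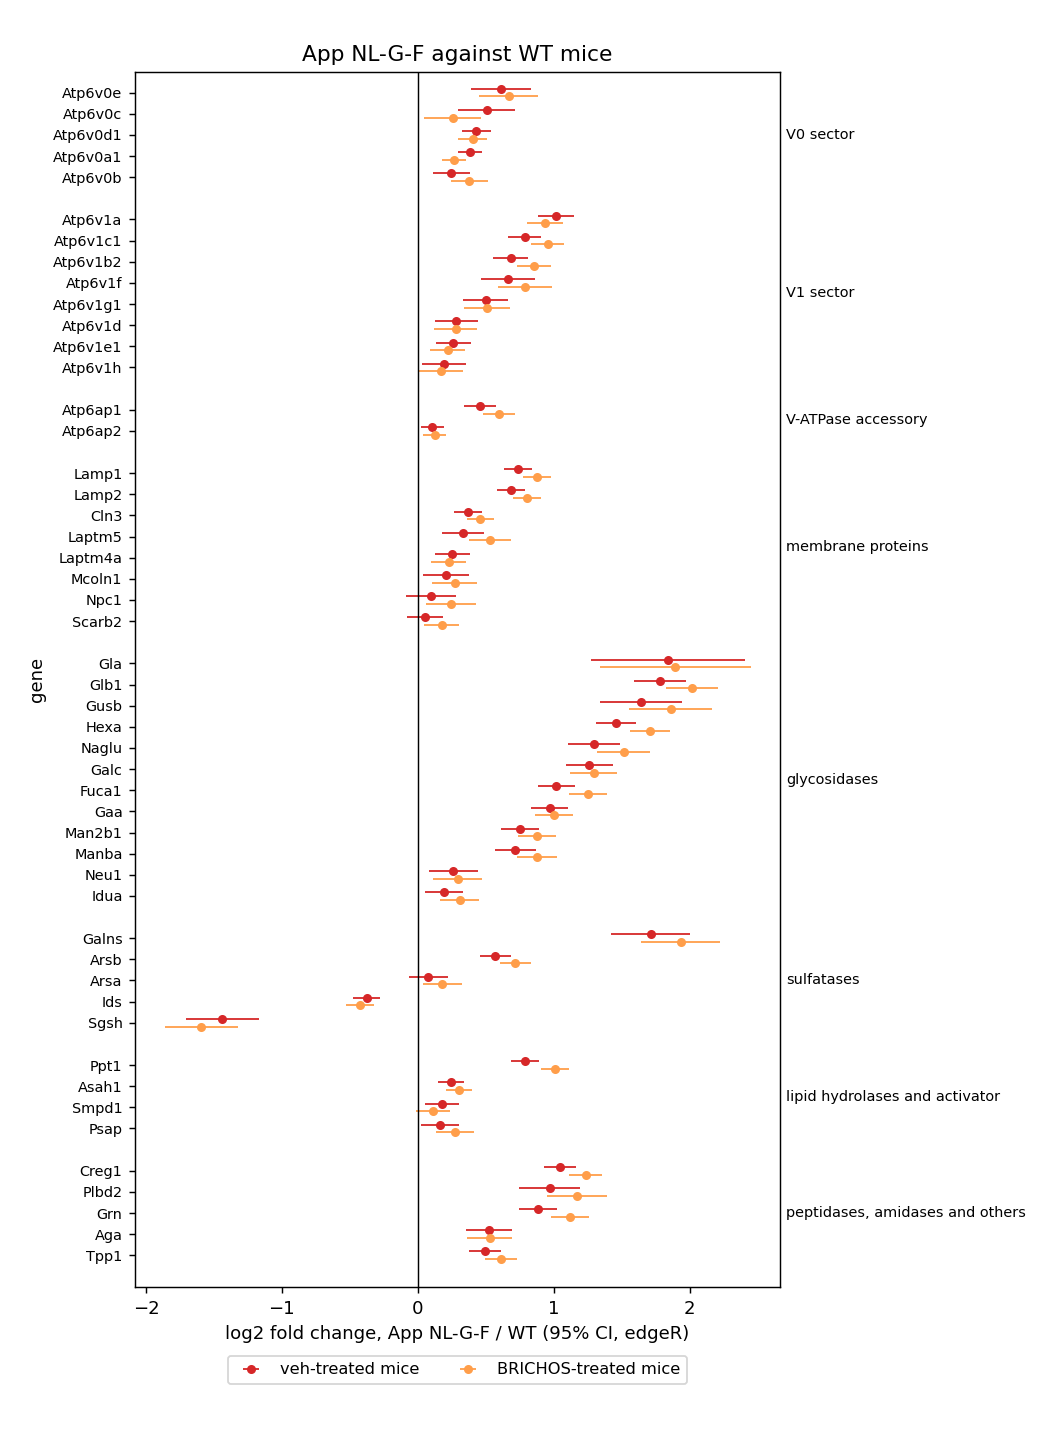
Log2 fold change of App NL-G-F against WT mice for the 49 genes by role, in mice given veh (red) and in treated mice (orange), with 95% confidence intervals from edgeR. The 2 estimates of each gene come from different mice and lie on the same side of 0 for all 49 genes, at the left for Sgsh and Ids. The signs matched for 12138 of the 15425 tested genes.

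Treatment with rh Bri2 BRICHOS R221E gave 0 calls among the 49 genes in the App NL-G-F strain, by edgeR and by DESeq2's Wald test. Of all tested genes 0.00648% were called by edgeR and 0.558% by DESeq2. At an unadjusted p-value under 0.05 edgeR gave 4 of the 49 genes (Hexa, Glb1, Fuca1 and Creg1), or 8.16%, and 10.8% of all tested genes. The estimate was higher in treated mice for 41 of the 49, where 52.0% of all tested genes had a higher estimate, and the median was 0.065, against 0.008 over all tested genes. With library totals 30 of the 49 estimates were higher, against 38.5% of all tested genes, and the median was 0.016, against -0.041 over all tested genes. The summed level of the 49 was 28508, 30066 and 30534 CPM in treated App NL-G-F mice. It was 27296, 27953 and 28570 CPM in those given veh, and the groups overlapped narrowly.

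The lowest p-value was that of Fuca1, the lysosomal fucosidase. It was at 237, 264 and 250 CPM in treated and at 224, 216 and 222 CPM in App NL-G-F mice given veh, a log2 fold change of 0.18 ± 0.0624 (adjusted p = 0.337 from edgeR). Creg1 was at 666, 692 and 690 CPM in the treated mice (0.15 ± 0.054, adjusted p = 0.359), and Hexa at 2265, 2468 and 2364 CPM (0.17 ± 0.0659, adjusted p = 0.368). These 3 genes had separate ranges in treated and veh-treated mice, but none passed the correction. The share of all tested genes with separate ranges was not computed for this comparison. The 95% confidence intervals of the 49 genes lay between -0.472 (the lower bound of Sgsh) and 0.997 (the upper bound of Gla), and without Gla no upper bound was above 0.515. With the astrocyte marker level as a covariate the median of the 49 was 0.046 and 35 of the estimates were higher. The 6 endothelial markers summed to 366 to 419 CPM in treated and 435 to 590 CPM in App NL-G-F mice given veh, without overlap, and the 5 mural cell markers to 70.7 to 113.7 and 113.6 to 169.8 CPM. What part these cells have in the differences was not tested.

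In WT mice the treatment likewise gave 0 calls among the 49 genes by edgeR and by DESeq2. Of all tested genes edgeR called 0.00% and DESeq2 0.519%. Here 3 of the 49 (6.12%) had an unadjusted p-value under 0.05, against 11.4% of all tested genes. The estimate was higher in treated mice for 20 of the 49, against 49.1% of all tested genes. The median was -0.042, against -0.004 over all tested genes. Atp6v0c was at 166, 178 and 211 CPM in treated and at 140, 137 and 150 CPM in veh-treated WT mice, without overlap (0.38 ± 0.0962, adjusted p = 0.239 from edgeR). Ppt1 was at 254, 257 and 266 CPM in treated WT mice (-0.14 ± 0.0461, adjusted p = 0.299), and Manba, beta-mannosidase, at 46.1, 46.4 and 47.4 CPM against 48.96, 53.6 and 53.7 CPM (-0.16 ± 0.068, adjusted p = 0.409). Both lay below all veh-treated WT mice. What share of all tested genes had separate ranges in this comparison was not computed. The intervals of the 49 genes reached from -0.350 (Galns) to 0.989 (Gla). The 5 choroid plexus markers summed to 220 to 381 CPM in treated WT mice and to 66.8, 60.4 and 271 CPM in veh-treated WT mice. The border macrophage markers summed to 488 to 593 and 365 to 430 CPM. Their part in these values was not tested.

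**Figure D5:**
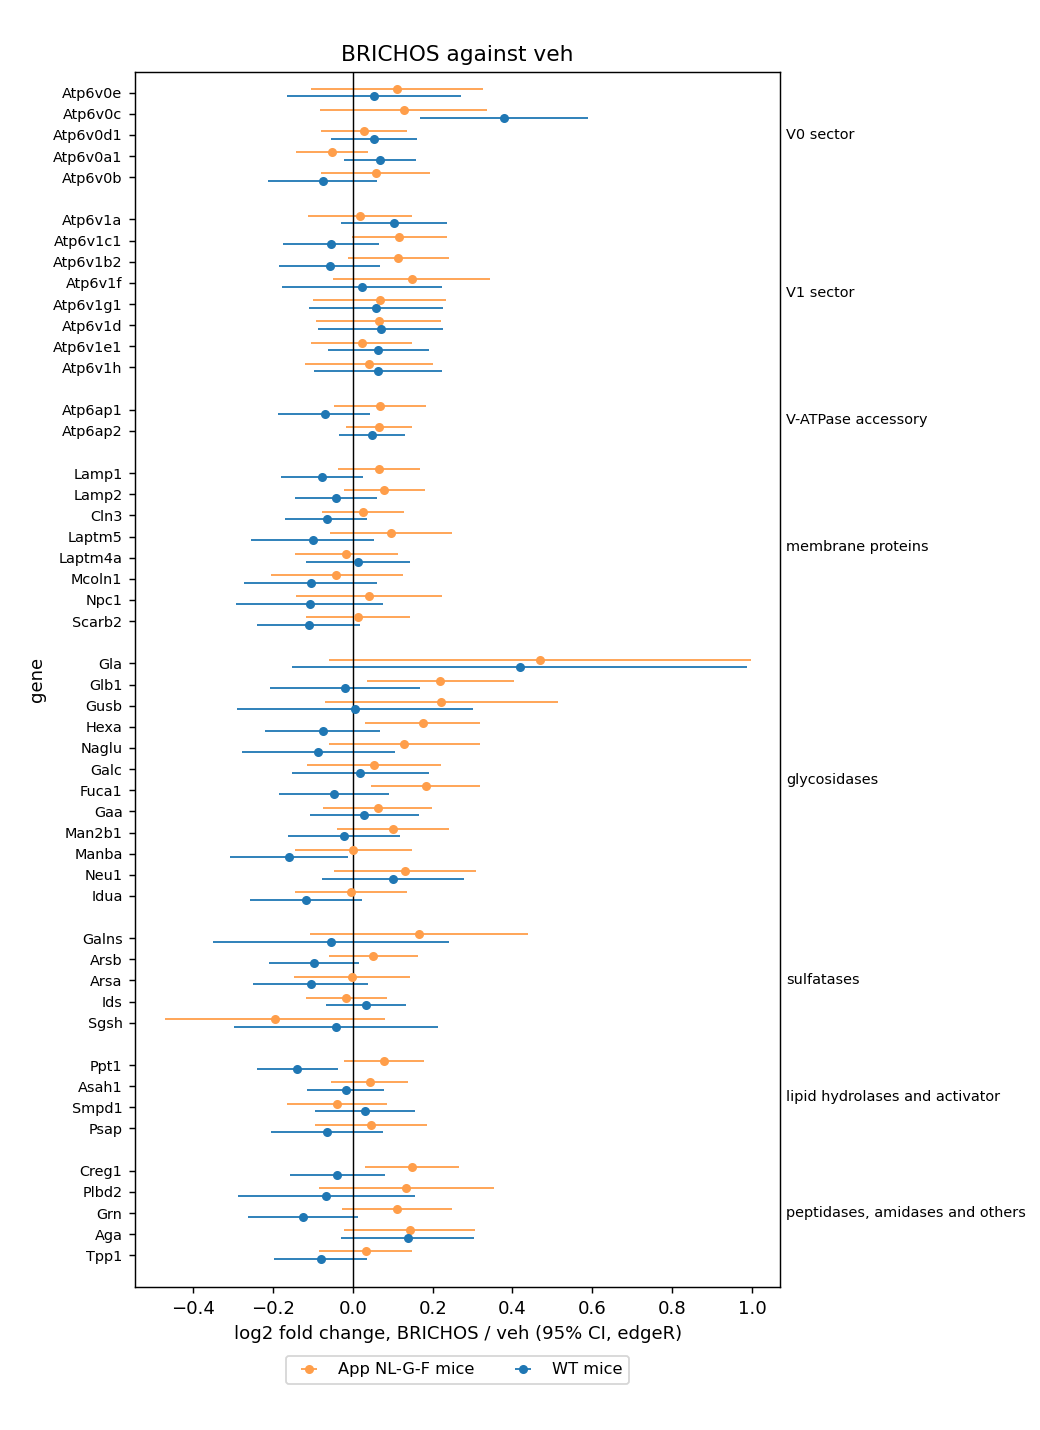
Log2 fold change of treated mice against mice given veh for the 49 genes by role, in App NL-G-F (orange) and WT mice (blue), with 95% confidence intervals from edgeR. Of the 49 estimates 41 are above 0 in App NL-G-F and 20 in WT mice, against 52.0% and 49.1% of all tested genes. Most intervals include 0, and Gla has the widest.

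Whether the treatment acted differently in the strains was tested as a difference of both treatment effects. None of the 49 genes was called by edgeR or DESeq2, and edgeR called 0.00648% and DESeq2 1.52% of all tested genes. At an unadjusted p-value under 0.05 there were 6 of the 49 (12.2%), against 14.8% of all tested genes. The difference was positive for 38 of the 49, against 52.1% of all tested genes, with a median of 0.11. With library totals 28 differences were positive, against 37.8% of all tested genes, and the median was 0.034. It was 0.22 ± 0.0651 for Ppt1 (adjusted p = 0.201), 0.25 ± 0.0933 for Hexa (adjusted p = 0.254) and 0.24 ± 0.0893 for Grn (adjusted p = 0.261). Grn was at 1250, 1311 and 1340 CPM in treated and 1336, 1435 and 1480 CPM in veh-treated WT mice, and at 2697, 2854 and 2942 CPM in treated and 2504, 2671 and 2689 CPM in App NL-G-F mice given veh. This difference uses the same libraries as the treatment comparisons and is no further evidence for them.

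Of 56 further genes of the pathway 51 were tested, and in mice given veh 27 of these were higher and 9 lower in the App NL-G-F strain. With library totals 21 were upregulated and 15 downregulated, and 6 changed sign, Vma21 among them. Of the V-ATPase subunit genes outside the 49, 5 were tested. Atp6v0d2, which encodes an alternative form of the stalk subunit of Atp6v0d1, was at 0.205, 0.712 and 0.447 CPM in veh-treated WT and at 58.3, 67.5 and 81.1 CPM in App NL-G-F mice given veh (log2 fold change 7.18 ± 0.275, adjusted p = 7.28e-09). Its WT values rest on few counts, so the size of the fold is imprecise. The alternative membrane subunit Atp6v0a2 fell by 0.73 (adjusted p = 3.66e-06) and Atp6v1g2 by 0.47 (adjusted p = 0.0133), and Tcirg1 (-0.028) and Atp6v0e2 (0.18) were not called. Of the 6 assembly factors of the pump Vma21 (0.19) and Wdr7 (0.27) were upregulated and 4 were not called, while with library totals neither of these was called and the estimate of Vma21 was -0.005.

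Of the 15 other lysosomal enzymes and activators 10 were upregulated, 2 were downregulated (Acp2 and Hgsnat) and 3 were not called. Npc2, which hands cholesterol to Npc1, was at 626, 642 and 644 CPM in veh-treated WT and at 1496, 1480 and 1515 CPM in App NL-G-F mice given veh, a rise of 1.23 ± 0.0656 (adjusted p = 8.89e-08). Npc1 itself was not called, as given above. Of the 15 other membrane proteins 9 were upregulated and 2 downregulated (Slc29a3 and Cd164). The tetraspanin gene Cd63 was at 172, 183 and 189 CPM against 649, 684 and 715 CPM, and the macrophage membrane glycoprotein gene Cd68 at 526, 537 and 559 CPM against 1394, 1470 and 1679 CPM. Their log2 fold changes were 1.91 ± 0.0899 (adjusted p = 3.59e-08) and 1.49 ± 0.091 (adjusted p = 2.52e-07). Among 6 genes that sort hydrolases to lysosomes, Gnptab (1.22) and Gnptg (0.72), which make the mannose 6-phosphate tag, Nagpa (0.23) and the receptor gene M6pr (0.28) were upregulated, and Sort1 was downregulated (-0.34). The calls of Nagpa and M6pr were lost with library totals.

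Of the MiT/TFE factors Mitf was upregulated in App NL-G-F mice given veh, from a mean of 39.7 to 74.1 CPM (log2 fold change 0.90 ± 0.053, adjusted p = 1.95e-07). Tfe3 was downregulated (-0.31, adjusted p = 0.0106), as was Tfec (-0.83, adjusted p = 0.0363), which was at 1.26 CPM in WT mice. Tfeb, at 54.3 and 50.3 CPM, was not called (-0.11, adjusted p = 0.287), but was called with library totals (-0.301, adjusted p = 0.00656). The 13 genes of the 49 with CACGTG in the promoter window had a median log2 fold change of 0.61 and the 27 without it 0.50. Both sets ranged from falling to strongly rising genes, from -1.44 to 1.84 with the letters and from -0.37 to 1.64 without them. For the full palindrome TCACGTGA the medians were closer, at 0.52 for the 6 genes with it and 0.50 for the 34 without it. Gla, with 2 copies of TCACGTGA, was the gene with the largest rise, and Sgsh, with the largest fall, holds CACGTG as well.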

How the data were processed

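RNA of CD11b-positive cortical cells was sequenced from 12 mice, 3 in each of 4 groups, which were taken from the library names. Per the labels, libraries were made with a stranded mRNA kit. After trimming (Cutadapt) and alignment to GRCm38 (STAR), the authors assigned reads to genes by featureCounts, and the deposited values are counts that were not normalized. The strand setting of the counting and the treatment of reads shared between genes are not given in the sources used here. Exons of 15 of the 49 genes overlap with a gene on the opposite strand and those of 1 with a gene on the same strand.

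Ensembl identifiers were matched to symbols and exon lengths with GENCODE M21, and promoter windows were taken from RefSeq (GRCm38.p6). R 4.3.3 with edgeR 4.0.16, DESeq2 1.42.0 and limma 3.58.1 and Python 3.11.15 with pandas 2.3.3 were used. Genes were kept by filterByExpr with a minimum count of 10, and 1 model with 4 group means was fitted to all 12 libraries (glmQLFit, glmQLFTest), with Benjamini-Hochberg adjustment over all 15425 tested genes. The fit was tested on simulated data first. Libraries of a group differed by more than counting error (chi-square per degree of freedom 5.81 to 34.1), and detection limits of 3 counts cover counting error only. The mice of each group are separate animals.

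The 49 genes, their roles and the lists of further genes and markers were chosen with earlier results of these data known. Values in every mouse are given for the 2 called genes with the largest change in each role, the largest fall, the 3 lowest p-values of each treatment contrast and 4 further pathway genes. Gusb and Ids, and the grouping by heparan sulfate, were chosen after their values were seen. Alternatives were DESeq2 size factors, library totals, DESeq2's Wald test, the compared groups only, no filter, at least 10 counts in every library, the replicate number as a block and leaving out each library. The astrocyte or oligodendrocyte marker level as a covariate and the omission of 2 libraries were chosen after seeing the data. Values of some further pathway genes are not reported here.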

Additional observations from a re-analysis of the deposited data

How the results depend on the processing

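With library totals in place of TMM factors the median log2 fold change of the 49 genes was 0.317 between veh-treated strains, 0.328 between treated strains and 0.034 for the difference of the treatment effects, and that of Atp6ap2 between veh-treated strains was -0.083. The causes were not tested. The total count of called genes among the 49 stayed within 1.5 times of that reported in every alternative run: 31 to 46 between veh-treated and 33 to 47 between treated strains, and 0 in each of the 3 treatment contrasts. Counts by role moved further between strains given veh. With the astrocyte marker level as a covariate 8 instead of 14 V-ATPase genes were called, and with this covariate or with library totals 3 instead of 5 membrane protein genes and 1 instead of 3 lipid genes.

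Leaving out each library in turn gave 39 to 43 and 41 to 47 called genes, with medians of 0.486 to 0.547 and 0.56 to 0.624. The medians of the treatment contrasts were 0.051 to 0.089 in App NL-G-F mice, -0.073 to -0.008 in WT mice and 0.095 to 0.138 for their difference. Between strains given veh, the call of Atp6ap2 was lost in 19 of 22 alternatives, among them every omission of 1 library but replicate 2 of App NL-G-F mice given veh (0.092 to 0.115). Those of Idua (0.156 to 0.205), Neu1 (0.239 to 0.278) and Smpd1 (0.144 to 0.169) were lost without replicate 1 or 3 of App NL-G-F or replicate 1 or 2 of WT mice given veh, and that of Neu1 also without WT replicate 3. Between treated strains the call of Atp6v0c was lost without any of 9 single libraries (0.164 to 0.282), and those of Atp6ap2, Arsa, Mcoln1, Neu1, Npc1 and Scarb2 without 1 to 7.

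The replicate numbers gave correlations of -0.0148 to 0.227 between equally numbered libraries, and in no comparison were all 3 above 0.1, so they were not treated as pairs. With the replicate block 46 and 47 genes were called between the strains and 0 by treatment. With TCACGTG in place of TCACGTGA, 13 instead of 6 of the 40 genes with a promoter window held the motif, since it is shorter. With 3 mice per group and adjustment over all tested genes, treatment differences inside the intervals given may have been missed. An interval without 0 was not enough for a call, as for Atp6v0c in WT mice (95% CI 0.168 to 0.590, adjusted p = 0.239 from edgeR).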
